A study of Mus musculus with 4 samples.

Results

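The unfolded protein response and the chaperone machinery of the endoplasmic reticulum (ER) were followed as a group of 34 genes in primary aortic smooth muscle cells of the mouse, with and without a floxed Atg7 allele. The group was chosen by gene name. The array files themselves named 32 of the genes, and Manf and Ppp1r15a, listed there as Armet and Myd116, were found through their RefSeq accessions. The group comprised 12 chaperones and chaperone partners, 5 protein disulfide isomerases, 6 stress sensors and regulators, 8 genes of ER-associated degradation and 3 of the translocon. All 34 passed the filter on dim probes and so were among the 12367 genes tested. They had 70 probes on the array, of which 60 passed. Each of those 60 gave a signal well above background from both genotypes on every array, and none was saturated.

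Secreted and membrane proteins enter the ER through the Sec61 channel and fold there with the help of BiP, GRP94, the lectins calnexin and calreticulin, and enzymes that form disulfide bonds. When misfolded protein accumulates, the sensors IRE1, PERK and ATF6 are activated. ATF6 and the spliced form of XBP1 then raise transcription of chaperones and of the degradation machinery, while PERK slows translation and, through ATF4, induces genes of amino acid supply and redox balance. Smooth muscle cells of the aorta secrete matrix proteins in quantity and depend on this folding capacity. Atg7, the E1-like enzyme of autophagosome formation, lies outside the pathway, and autophagy can remove parts of the ER.

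Cells came from animals labelled Atg7F/F SM22α-Cre+ or Atg7+/+ SM22α-Cre+, strain C57LB/6 in the labels' spelling. Both genotypes thus carried Cre recombinase driven by the SM22α (Tagln) promoter, which is active in smooth muscle. The medium was DMEM/F-12 with 10% FBS, and cells of passages 4 to 10 entered the experiments. The passage of each replicate, the age of the animals and whether animals were pooled are not given in the sources used here. Each genotype had 2 biological replicates, and the Atg7F/F and Atg7+/+ extracts of the same number were hybridised together on 2 Agilent two-colour arrays with exchanged dyes. The ratios below are log2 of Atg7F/F over Atg7+/+. Each is the mean of 2 replicates ± SD (n = 2), where both arrays of a dye swap were first averaged into 1 replicate. Precision is limited by having only 2 replicates.

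The checks of the cells concern the whole array and are brief. Atg7 had a ratio of -1.22 ± 0.07 and was lower on all 4 arrays. In limma its unadjusted p was 0.00061 and its adjusted p 0.94. The floxed exon is not given in the labels, so the position of its probe in or outside the deleted part is unknown. The smooth muscle markers Tagln and Acta2 were well above background in every extract, and 8 of 9 such markers passed the filter, Myocd being the exception. Those 8 had a median ratio of -0.10. On all 4 arrays 0 were higher and 2 lower, where 10.6% and 9.95% of all genes were. The 2 were Tagln at -0.23 and Acta2 at -0.17. Between replicates 1 and 2 Cnn1 went from 0.40 to -0.40 and Myh11 from 0.25 to -0.54. Macrophage markers passed in 5 of 12 cases, namely Lyz2, Csf1r, Cd14, Cd68 and C1qb, with Ptprc, Adgre1 and Itgam among those that did not. Lyz2 had a ratio of -0.50 in replicate 1 and of 0.58 in replicate 2. The summed level of the 5 was 11.00 and 12.19 log2 units in Atg7F/F and 11.38 and 11.70 in Atg7+/+. All 16 endothelial markers passed, with a median ratio of -0.31, and 12 of them were lower on all 4 arrays, where 9.95% of all genes were. Their summed level was 13.73 and 13.90 log2 units in the Atg7F/F extracts and 13.87 and 14.70 in the Atg7+/+ extracts, so the ranges overlapped narrowly. The 8 fibroblast markers had a median of -0.35 in the first replicate and of 0.52 in the second, and summed levels of 12.98 and 12.70 in Atg7F/F against 13.33 and 12.59 in Atg7+/+. The part that these cell types had in the ratios of the ER genes was not tested, and in bulk samples fewer cells of a type cannot be told apart from less RNA per cell.

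Sequences upstream of the genes are given first, since they show which members carry the letters through which the pathway is known to act. The ER stress response element (ERSE, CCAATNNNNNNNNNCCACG) is bound by the constitutive factor NF-Y at its first part and by ATF6 or XBP1 at its last. The 250 bases before the start of Hspa5, which encodes BiP, are shown from RefSeq on GRCm38.p6, chr2:34771840-34772089, plus strand. Capitals mark the conserved ends of the ERSE near the start and, further upstream, the core of the unfolded protein response element (UPRE, TGACGTG).
Hspa5: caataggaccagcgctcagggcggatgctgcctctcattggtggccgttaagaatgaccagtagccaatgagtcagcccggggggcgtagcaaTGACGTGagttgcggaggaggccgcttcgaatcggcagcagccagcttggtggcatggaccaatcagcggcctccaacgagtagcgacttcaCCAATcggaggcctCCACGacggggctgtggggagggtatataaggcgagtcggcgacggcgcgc

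RefSeq promoter windows, from 250 bases before to 50 after a start, were at hand for 28 of the 34 members. Hyou1, Hspa13, Atf6, Manf, Sec61a1 and Derl1 had no window in the table used. Both strands were searched. An exact ERSE lay in the window of 9 members, against 39 of the 32851 mouse promoter windows searched (0.119%). Those 39 include the windows of the members, which were chosen as genes of this pathway, so the counts are a description and not a test. The matches of the other 8 members are shown on the strand on which they read in the stated direction, with the same letters in capitals, because these genes are compared as a class further on.
Hsp90b1, chr10:86705521-86705563, plus strand: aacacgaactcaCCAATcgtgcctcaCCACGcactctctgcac
Calr, chr8:84847063-84847105, plus strand: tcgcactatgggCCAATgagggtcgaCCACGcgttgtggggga
Canx, chr11:50325788-50325830, minus strand: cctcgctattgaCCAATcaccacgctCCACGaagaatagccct
Creld2, chr15:88819508-88819550, minus strand: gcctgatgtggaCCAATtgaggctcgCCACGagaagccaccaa
Derl3, chr10:75893230-75893272, minus strand: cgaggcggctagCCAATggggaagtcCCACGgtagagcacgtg
Dnajc3, chr14:118937815-118937857, plus strand: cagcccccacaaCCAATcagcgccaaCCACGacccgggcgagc
Pdia6, chr12:17266479-17266521, plus strand: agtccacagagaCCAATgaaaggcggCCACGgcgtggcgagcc
Syvn1, chr19:6046520-6046562, plus strand: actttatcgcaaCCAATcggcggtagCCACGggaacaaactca

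Hsp90b1 held a second exact match, further from its start. The shorter ERSE-II (ATTGGNCCACG) was in the windows of Herpud1 and Dnajb11 and in 0.0365% of all windows. In Herpud1 it lay 52 to 42 bases before the start, at chr8:94386365-94386399 with its flanks on the plus strand, and is shown as the second form of the element.
Herpud1: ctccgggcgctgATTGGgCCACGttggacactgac

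The UPRE core was found in Hspa5 alone of the members and in 2.01% of all windows. The C/EBP-ATF response element (CARE, TGATGNAAT), through which ATF4 is known to act, was in 0.965% of all windows and in 0 of the 28. These matches describe letters and not occupied sites, and a window without a match says nothing about the factor.

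Across the 34 genes the genotypes differed little. Their median ratio was 0.04 (0.02 in replicate 1, 0.04 in replicate 2), beside 0.00 over all genes tested. The lowest member was Atf6 at -0.34 and the highest was Pdia4 at 0.44. None of the 34 lay beyond 0.5 log2 units in either direction in this processing. Of all genes 2.42% did, so a count of 0 in 34 is near the background. With the scanner software's processed signals Derl3 was at -0.82 and Hyou1 at 0.56, and with median centring Pdia4 was at 0.51. In the main test the 95% confidence intervals of all 34 members stayed within 1 log2 unit of 0, and the widest bound was 0.99, for Mbtps1.

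No member reached an adjusted p below 0.05 in limma (0 of 34, where the share over all genes was 0%), and the adjusted p was 1.00 for each. The targeted Atg7 did not pass either (adjusted p 0.94 in limma), so a count of 0 does not show that the members were unchanged. At an unadjusted p below 0.05, 1 member was higher (Pdia5), against 1.34% of all genes, and 1 was lower (Atf6), against 1.64%. Their summed count of 2 ranged from 1 to 6 over the alternative settings, and it was 6 without the filter on dim probes and in both random-block fits of the single arrays. The shares of all genes under those settings are not given here, so the change in this count is not a result about the members. With limma on all 4 arrays and the pair of extracts as a random block, 9 genes of the array passed an adjusted p of 0.05, and with the extracts as unpaired groups 1 did. No member was among them.

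A single sign on all 4 arrays is a plainer count. By it, 7 of 34 members (20.6%) were higher in Atg7F/F, where 10.6% of all genes were. They were Pdia4, Pdia5, Xbp1, Sec61b, Hyou1, Ssr1 and Dnajb11. On the low side were 3 of 34 (8.82%), Atf6, Sel1l and Dnajc3, where 9.95% of all genes were. The count on the low side is near the background and that on the high side above it, and no test of the difference was made. When arrays were centred on their median in place of loess, Pdia5, Xbp1 and Hyou1 were still higher on every array and no member was lower on every array. Under that scaling 601 of all 12367 genes were higher and 265 lower on every array. The split of all genes with a single sign moved from 51.6% higher and 48.4% lower to 69.4% and 30.6%.

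**Figure D1:**
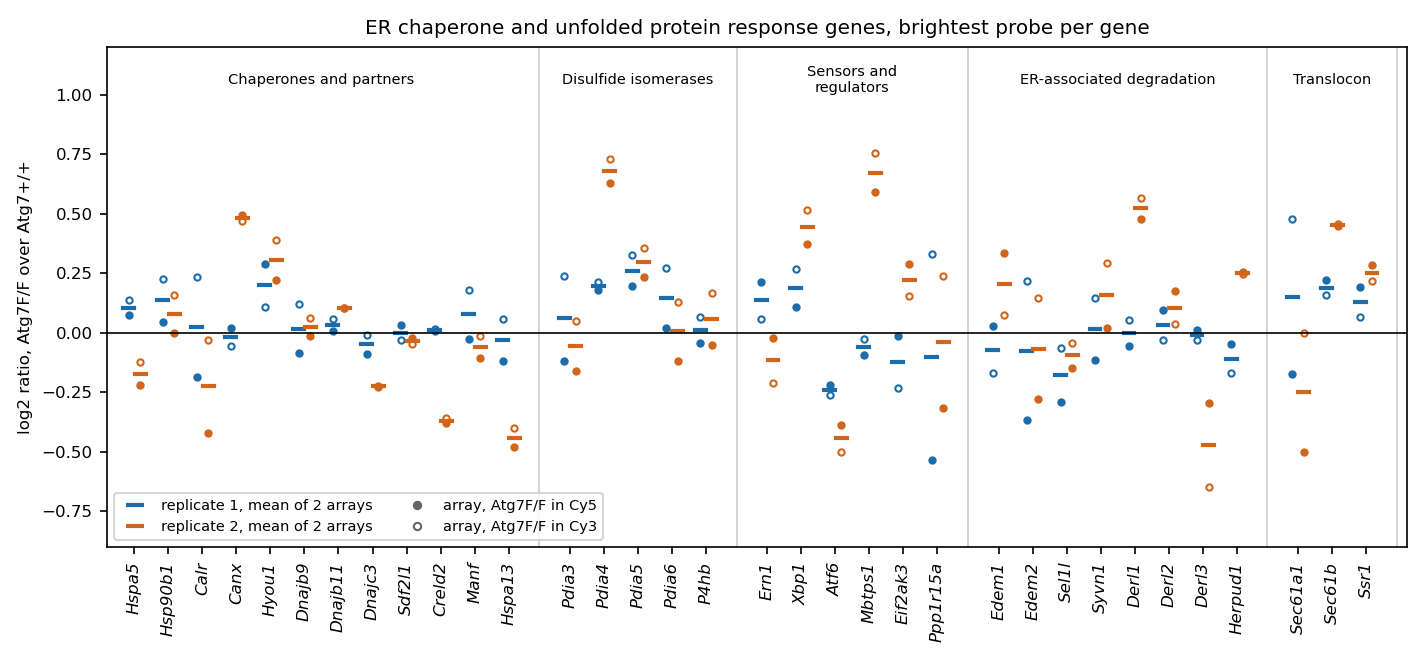
Log2 ratio of Atg7F/F over Atg7+/+ (vertical axis) for the 34 genes, grouped by role; bars are the means of the 2 dye-swapped arrays of a replicate (blue, replicate 1; orange, replicate 2), filled and open points the single arrays with Atg7F/F in Cy5 or Cy3. Pdia4, Pdia5, Xbp1, Sec61b, Hyou1, Ssr1 and Dnajb11 lie above 0 on all 4 arrays, Atf6, Sel1l and Dnajc3 below 0 on all 4, and the orange bars spread more widely than the blue ones.

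Levels in the single extracts gave a similar picture. They are log2 signals after loess and scaling of the arrays to a common average, and hold for comparison of 1 probe between extracts only. In 7 of 34 members (20.6%) both Atg7F/F extracts were above both Atg7+/+ extracts, where 11.4% of all genes were. These were Hsp90b1, Hyou1, Pdia4, Pdia5, Xbp1, Syvn1 and Sec61b. In 4 members (11.8%), Atf6, Edem2, Sel1l and Derl3, both were below, where 10.1% of all genes were.

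The chaperones as a class were near 0, with a median ratio of -0.00 over 12 genes, 2 higher and 1 lower on all 4 arrays. For this and the other classes, the shares over all genes were 10.6% higher and 9.95% lower. Hspa5 encodes BiP, the Hsp70 of the ER lumen and the most widely used readout of the unfolded protein response. Replicate 1 had a level of 14.01 in Atg7+/+ and 14.12 in Atg7F/F, and replicate 2 had 14.02 and 13.85. One Atg7F/F extract was thus above both controls and the other below both. The ratio was -0.03 ± 0.20, with a 95% confidence interval from -0.39 to 0.32, and the arrays gave 0.07 and 0.14 for the first pair and -0.22 and -0.12 for the second. Its probe lies at chr2:34631630-34631689 of mm9, the build of the array files.

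Hsp90b1 encodes GRP94, the Hsp90 of the ER. The levels were 13.98 and 14.08 in Atg7+/+ and 14.12 and 14.15 in Atg7F/F, so the groups did not overlap, though by a margin of a few hundredths. The ratio was 0.11 ± 0.04 and the second probe of the gene gave -0.02. Calr, the calcium-binding lectin calreticulin, had -0.10 ± 0.18, with 0.02 and -0.22 in the replicates, and its second probe gave -0.04. Canx, its membrane-bound relative calnexin, had -0.02 in replicate 1 and 0.48 in replicate 2. Its 2 other probes gave 0.08 and -0.01 in replicate 1 and 0.25 and 0.28 in replicate 2, so all 3 probes were higher in replicate 2 than in replicate 1.

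Hyou1, a large Hsp70-related exchange factor for BiP, had levels of 7.21 and 7.26 in Atg7+/+ and 7.41 and 7.56 in Atg7F/F. The groups did not overlap. The ratio was 0.25 ± 0.08 (unadjusted p 0.063, adjusted p 1.00 in limma). This probe is dim, at chr9:44200367-44200426 of mm9, and the ratio ranged from 0.25 to 0.56 over 13 alternative settings of the analysis. Several of these settings altered only the filter or the test and left the ratios of the members unchanged. The second Hyou1 probe was not above background on any array.

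The J-domain partners of BiP were close to 0 or slightly lower. Dnajb9 (ERdj4), a target of spliced XBP1, had 0.02 ± 0.01 and its 2 other probes 0.00 and -0.00. Dnajb11 (ERdj3), which hands substrates to BiP, had 0.07 ± 0.05. Its 4 array ratios ran from 0.01 to 0.11, the smallest single-sign difference of the group. Dnajc3 (p58IPK), a partner of BiP that was first known as an inhibitor of eIF2α kinases, had -0.14 ± 0.12, and its other probes gave -0.12 and 0.05.

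Small stress-inducible ER proteins were near 0 in replicate 1. Sdf2l1, which works with Dnajb11, had 0.00 and -0.03 in the replicates, and Manf, a secreted ER stress protein, 0.08 and -0.06. Creld2, a secreted protein that ER stress induces, had 0.01 in replicate 1 and -0.37 in replicate 2. Its levels were 13.57 and 13.25 in Atg7+/+ and 13.58 and 12.88 in Atg7F/F, so the difference rested on the second pair. Hspa13 (Stch), a microsomal ATPase of the Hsp70 family, had -0.03 and -0.44, and its second probe had -0.00 and 0.18, with the opposite sign in replicate 2.

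Among the disulfide isomerases, Pdia4 and Pdia5 stood above 0 on every array and P4hb, Pdia3 and Pdia6 did not. The median of the 5 genes was 0.08. Pdia4 (ERp72) had levels of 10.14 and 10.21 in Atg7+/+ and 10.33 and 10.89 in Atg7F/F. Both Atg7F/F extracts were above both controls, the second far more so. On the arrays the ratio was 0.18 and 0.21 for the first pair and 0.63 and 0.73 for the second, which gave 0.44 ± 0.34, 1.35-fold (95% confidence interval -0.05 to 0.93, unadjusted p 0.067 in limma). The probe lies at chr6:47746516-47746575 of mm9 and was the only Pdia4 probe.

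Pdia5 had the smallest spread of the genes beyond 0.2 log2 units. The levels were 11.37 and 11.25 in Atg7+/+ and 11.63 and 11.54 in Atg7F/F. Groups were separate, and the ratios of the replicates were 0.26 and 0.30. The mean was 0.28 ± 0.02, 1.21-fold, with a 95% confidence interval from 0.02 to 0.54 (unadjusted p 0.043, adjusted p 1.00 in limma). Its probe lies at chr16:35407720-35407779 of mm9.

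The more widely studied isomerases differed less. P4hb (PDI) had 0.04 ± 0.03, Pdia3 (ERp57), the partner of calnexin and calreticulin, 0.00 ± 0.08, and Pdia6 (P5) 0.08 ± 0.10. Pdia3 had array ratios of -0.12 and -0.16 with Atg7F/F in Cy5 and of 0.24 and 0.05 with it in Cy3, so the sign went with the dye. All 3 probes of Pdia6 had means above 0, between 0.01 and 0.11.

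**Figure D2:**
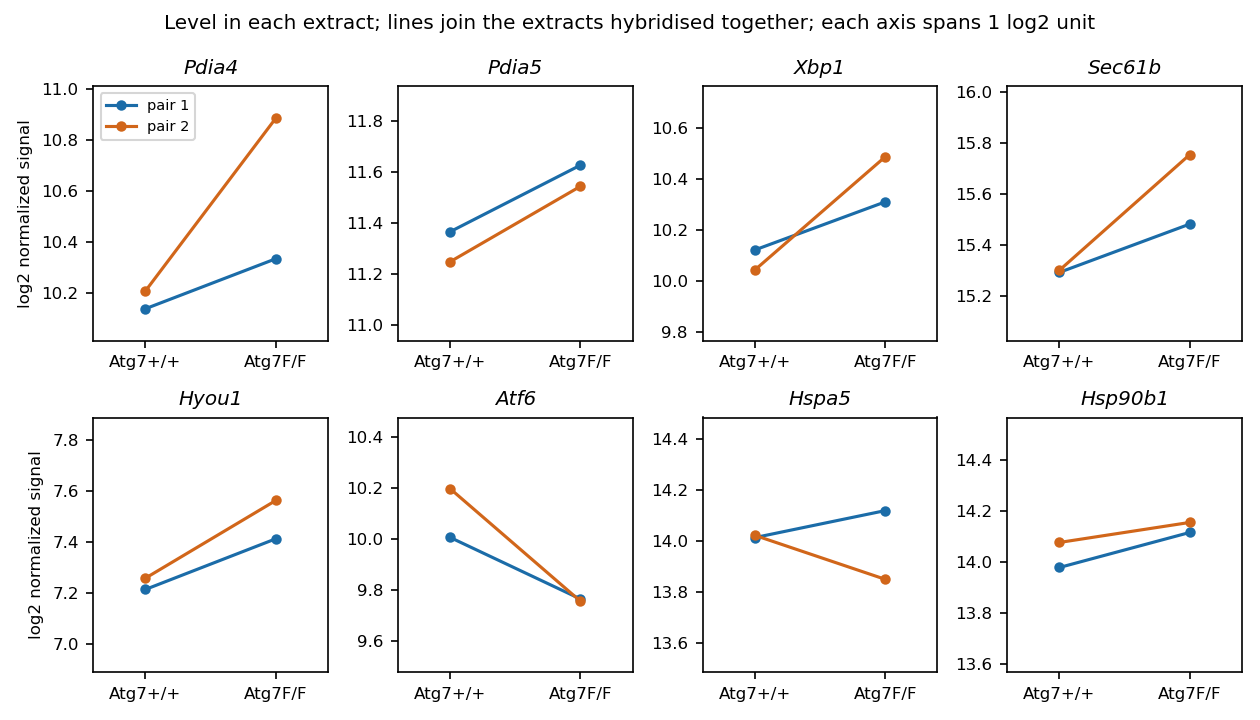
Log2 normalized signal (vertical axis, 1 log2 unit in every panel) of 8 members in the 2 Atg7+/+ and 2 Atg7F/F extracts; lines join the extracts hybridised together (blue, pair 1; orange, pair 2). Both lines go up for Pdia4, Pdia5, Xbp1, Sec61b, Hyou1 and Hsp90b1 and down for Atf6, and the 2 lines of Hspa5 go in opposite directions.

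Sensors and regulators held both the lowest member and 1 of the higher ones. Atf6 encodes a membrane-bound transcription factor that is cleaved in the Golgi and moves to the nucleus. Its levels were 10.00 and 10.20 in Atg7+/+ and 9.76 and 9.75 in Atg7F/F, without overlap. The array ratios were -0.22, -0.26, -0.39 and -0.50, and the mean was -0.34 ± 0.14, 1.27-fold lower (95% confidence interval -0.65 to -0.03, unadjusted p 0.040, adjusted p 1.00 in limma). The dimmer second probe of Atf6 gave 0.07, with 0.18 in replicate 1 and -0.04 in replicate 2. The probes lie at chr1:172637679-172637738 and chr1:172638994-172639053 of mm9, close together, and they differed in sign.

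Xbp1 encodes the factor whose mRNA IRE1 splices. Its levels were 10.12 and 10.04 in Atg7+/+ and 10.31 and 10.49 in Atg7F/F. These did not overlap, and the array ratios were 0.11 and 0.27 for the first pair and 0.37 and 0.52 for the second. The mean was 0.32 ± 0.18, 1.25-fold (95% confidence interval -0.03 to 0.66, unadjusted p 0.060). The single probe, at chr11:5424970-5425029 of mm9, measures total Xbp1 as the files describe it, and spliced and unspliced forms were not told apart. Ern1, which encodes IRE1α itself, had 0.01 ± 0.18, with 0.14 and -0.12 in the replicates.

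Eif2ak3 encodes PERK and had -0.12 in replicate 1 and 0.22 in replicate 2. Ppp1r15a (GADD34), the phosphatase subunit that reverses eIF2α phosphorylation and is induced late in the PERK branch, had array ratios of -0.54 and -0.31 with Atg7F/F in Cy5 and of 0.33 and 0.24 with it in Cy3. The sign followed the dye, and the mean was -0.07 ± 0.05. Mbtps1, the site-1 protease that cuts ATF6, had -0.06 in replicate 1 and 0.67 in replicate 2, the widest gap between replicates in the group. Its levels were 10.29 and 10.14 in Atg7+/+ and 10.23 and 10.82 in Atg7F/F, and the 2 dimmer probes gave 0.17 and -0.01 in replicate 2.

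The 8 genes of ER-associated degradation had a median of 0.07, from -0.04 for the first pair and 0.13 for the second, and none was higher on all 4 arrays. Derl1, a channel component of retrotranslocation, had 0.00 in replicate 1 and 0.52 in replicate 2. Its levels were 11.88 and 11.73 in Atg7+/+ and 11.88 and 12.25 in Atg7F/F, so only the second Atg7F/F extract stood apart. Its 3 other probes had 0.45, 0.39 and 0.13 in replicate 2 and lay between -0.09 and 0.02 in replicate 1. The 4 probes of Derl1 thus shared the step between replicates.

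Derl2, a close relative, had 0.07 ± 0.05, and its second probe -0.04. Derl3 was among the dimmest members, with levels of 6.80 and 7.19 in Atg7+/+ and 6.79 and 6.72 in Atg7F/F. The Atg7F/F extracts were below both controls, with a ratio of -0.01 in the first pair and of -0.47 in the second. Its mean of -0.24 ± 0.33 ranged from -0.82 to -0.23 over the 13 alternative settings.

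The ubiquitin ligase Syvn1 (HRD1) and its partner Sel1l differed in sign. Sel1l had levels of 8.62 and 8.52 in Atg7+/+ and 8.44 and 8.43 in Atg7F/F, and a ratio of -0.14 ± 0.06 with a single sign on all arrays. Its second probe gave 0.03. Syvn1 had 0.09 ± 0.10 and levels of 13.05 and 12.96 against 13.07 and 13.11, a narrow separation, and its second probe, which is dim, gave -0.01.

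Edem1 and Edem2 help to mark misfolded glycoproteins for degradation. Edem1 had 0.07 ± 0.19 with its brightest probe, which stood for the gene. Another Edem1 probe, at chr6:108804262-108804321 of mm9, had 0.28 and 0.30 on the arrays of replicate 1 and 0.32 and 0.33 on those of replicate 2, and the third probe a mean of 0.11. All 3 had means above 0. Edem2 had array ratios of -0.37, 0.22, -0.28 and 0.14, which alternated with the dye. Herpud1, an ER membrane protein of the HRD1 complex that is strongly induced by ER stress, had -0.11 in replicate 1 and 0.25 in replicate 2.

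The translocon genes had the highest median of the classes, 0.19 over 3 genes, 2 of them higher on all 4 arrays. Sec61b, the small β subunit of the Sec61 channel, had levels of 15.29 and 15.30 in Atg7+/+ and 15.48 and 15.75 in Atg7F/F. The controls were nearly equal and both Atg7F/F extracts were above them. The ratio was 0.32 ± 0.19, 1.25-fold (95% confidence interval -0.02 to 0.67, unadjusted p 0.060 in limma). The probe was not saturated on any array, and over the 13 alternative settings the value ran from 0.32 to 0.47.

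Ssr1, the α subunit of the translocon-associated protein complex, had levels of 9.88 and 9.59 in Atg7+/+ and 10.01 and 9.84 in Atg7F/F, which overlapped, and a ratio of 0.19 ± 0.09. Its second probe gave 0.57 in replicate 1 and -0.51 in replicate 2, and the third was at -0.01. Sec61a1, the channel subunit, had -0.05 ± 0.28 with the brightest probe, whose array ratios of -0.17, 0.48, -0.50 and 0.00 went with the dye. Its 2 other probes gave 0.16 and 0.10 and were above 0 on all 4 arrays.

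**Figure D3:**
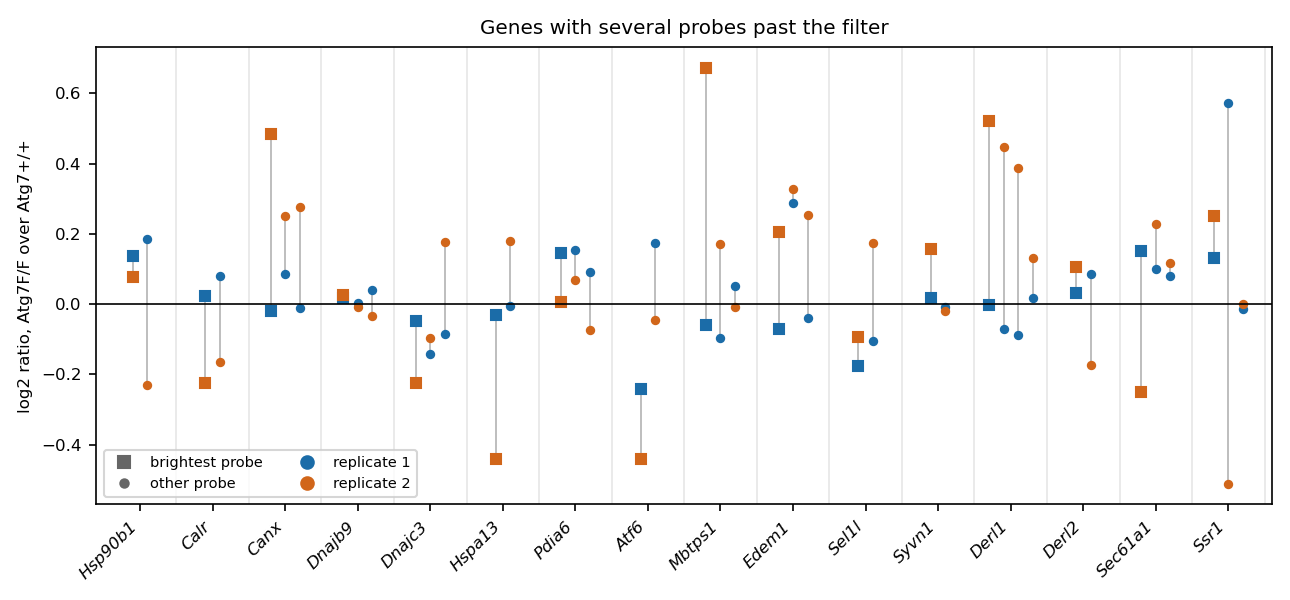
Log2 ratio of Atg7F/F over Atg7+/+ (vertical axis) for every probe past the filter of the 16 genes with several; squares are the brightest probe, which stood for the gene, circles the others, blue replicate 1 and orange replicate 2. The probes of Canx and Derl1 share higher values in replicate 2, while those of Atf6, Hspa13 and Ssr1 differ in sign.

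Probes of 1 gene therefore bear on how far a value can be read. Of the 16 members with several probes past the filter, 6 had means of a single sign and 10 had both signs. The other 18 members, Pdia4, Pdia5, Xbp1, Sec61b, Hyou1 and Hspa5 among them, had 1 probe past the filter and no such check. In 6 members (17.6%), Dnajb9, Pdia3, P4hb, Ppp1r15a, Edem2 and Sec61a1, the sign followed the dye on all 4 arrays, compared with 13.9% of all genes.

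The replicates differed in how far the members were from 0. In replicate 2, 9 of the 34 (26.5%) were beyond 0.4 log2 units, where 11.4% of all genes were, and in replicate 1 none was, where 6.36% of all genes were. The 9 were Pdia4, Mbtps1, Derl1, Canx, Sec61b and Xbp1 on the high side and Derl3, Atf6 and Hspa13 on the low side. Signs differed between the replicates in 14 members (41.2%) and in 54.5% of all genes. Across the 34 members the ratios of the replicates correlated with r = 0.32 (Spearman's rho 0.26), and across all genes with r = -0.10. This describes genes measured in the same 4 extracts, which are not independent. The fibroblast markers also moved apart between the replicates, as given above, and their part was not tested.

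**Figure D4:**
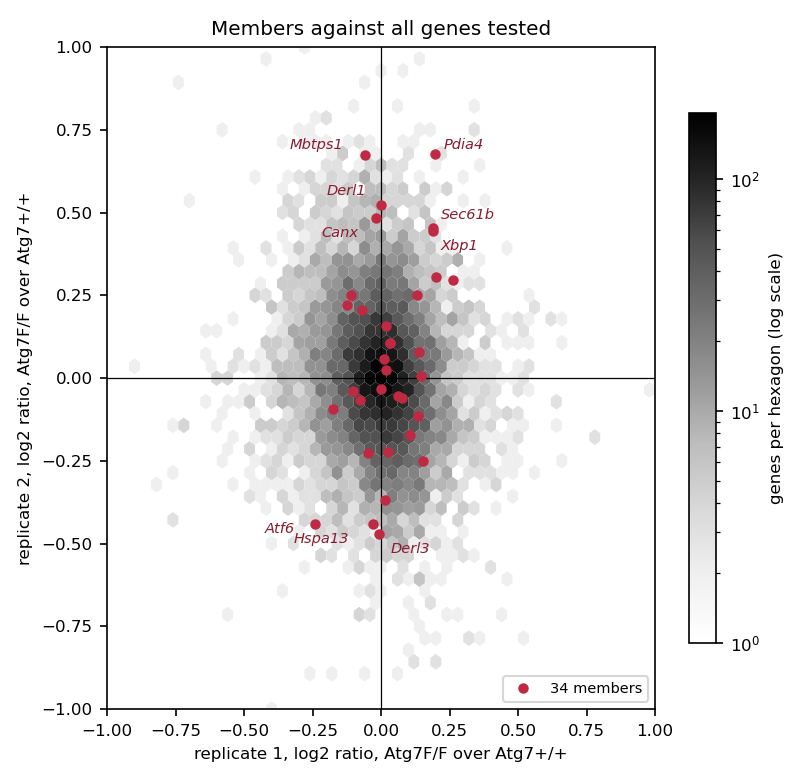
Log2 ratio in replicate 1 (horizontal axis) against replicate 2 (vertical axis); red points are the 34 members and grey hexagons count all genes tested within 1 log2 unit of 0, on a log scale. The members spread further along the axis of replicate 2, and the 9 beyond 0.4 there are named.

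The members were also read by the presence of an exact ERSE. The 9 that held it had a median of -0.03 (0.02 for the first pair, -0.17 for the second) and ranged from -0.24 (Derl3) to 0.23 (Canx). None was higher on all 4 arrays and 1, Dnajc3, was lower. The 19 members with a promoter window and no exact ERSE had a median of 0.07, and 6 were higher and 1 lower on all 4 arrays. Pdia4, Pdia5, Xbp1, Sec61b, Ssr1 and Dnajb11 were those 6. For the 6 members without a window the median was -0.02. Outside the group, 10 tested genes carried an exact ERSE, with a median of 0.00, 1 higher and 2 lower on all 4 arrays. Of all 8918 tested genes with a window, 918 were higher and 888 lower on all 4 arrays, with a median of 0.00. Herpud1 and Dnajb11, counted here as without an exact ERSE, carry the shorter ERSE-II. No test was made between the classes.

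**Figure D5:**
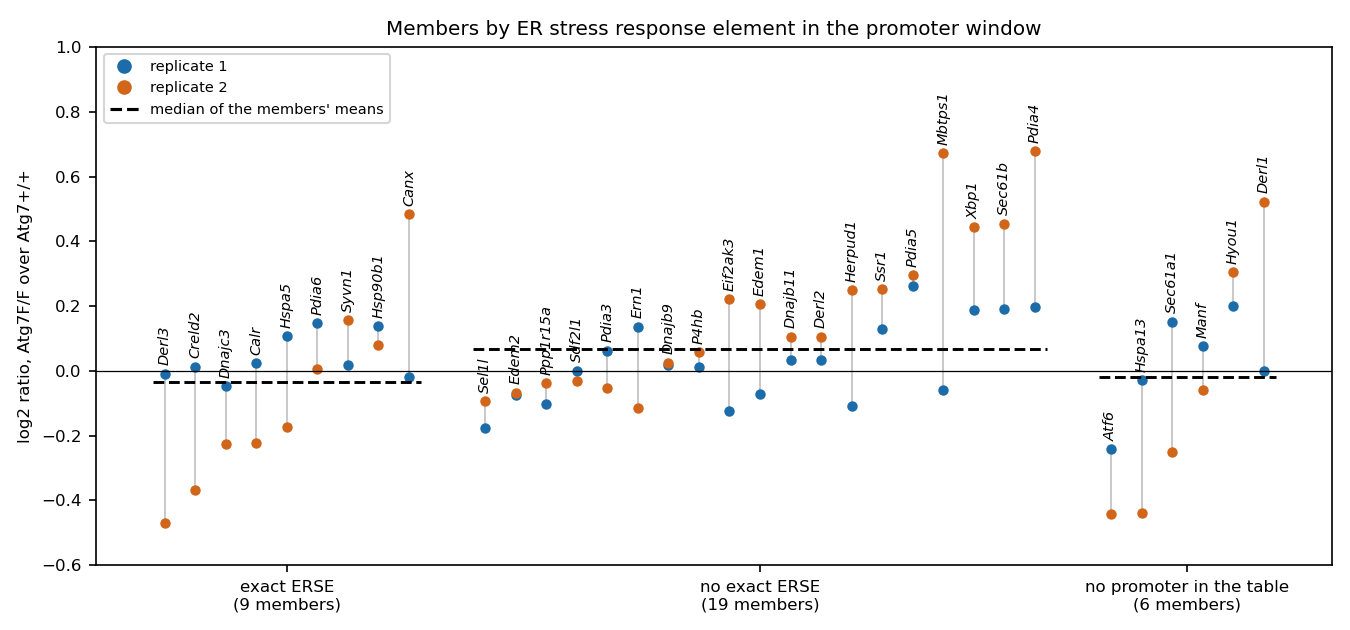
Log2 ratio of Atg7F/F over Atg7+/+ (vertical axis) of each member in replicate 1 (blue) and replicate 2 (orange), by whether its promoter window held an exact ERSE; dashed lines are medians of the members' means. The medians are -0.03 with an exact ERSE, 0.07 without and -0.02 where no window was at hand.

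Other genes of the pathway were read from 6 lists, chosen with earlier results of these data known. Together they held 151 genes, of which 141 were measured, with a median of 0.03, 21 higher and 11 lower on all 4 arrays. Over all genes 10.6% were higher and 9.95% lower on all 4 arrays, the background for this count and those of each list. At an unadjusted p below 0.05 in limma, 1.34% of all genes were higher and 1.64% lower. None passed an adjusted p of 0.05 in limma. Other ER folding factors, 37 of 37 measured, had a median of 0.06 (-0.03 in replicate 1, 0.14 in replicate 2). On all 4 arrays 6 were higher and 1 lower, and 2 were higher at an unadjusted p below 0.05 in limma. Ero1a, the oxidase that recharges PDI, had 0.66 ± 0.21 (unadjusted p 0.0096) and a second probe at 0.28, both higher on every array. Uggt2, a paralogue of the glycoprotein folding sensor Uggt1, had 0.30 ± 0.04 and a second probe at 0.04. The first Uggt2 probe is dim, with levels of 6.63 and 6.44 in Atg7+/+ and 6.96 and 6.71 in Atg7F/F. The filter asked for a signal above background in only 1 genotype. Txndc11, a thioredoxin-domain protein of the ER, had 0.26 ± 0.16 and a second probe at 0.09.

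Other translocon and signal peptidase genes, 29 of 31 measured, had a median of 0.09, with 7 higher and 1 lower on all 4 arrays. Spcs3, a signal peptidase subunit, had 0.31 ± 0.19 and a second probe at 0.29, and Rpn1, a subunit of the oligosaccharyltransferase, 0.22 ± 0.08. Spcs1, of the same peptidase, had -0.22 ± 0.18. Other degradation genes, 26 of 29 measured, had a median of -0.00, 1 higher and 2 lower, and the smallest unadjusted p among them belonged to the ubiquitin ligase Rnf5, the mannosidase Man1b1 and the p97 adaptor Ubxn4, at -0.17 ± 0.30, -0.09 ± 0.04 and -0.10 ± 0.17. The second probes of Rnf5 and Ubxn4 gave -0.18 and -0.13.

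Targets of the PERK, ATF4 and CHOP branch had the highest median of the lists, 0.20 over 18 of 20 genes. It was -0.02 in replicate 1 and 0.50 in replicate 2, so it rested on the second pair of extracts. On all 4 arrays 7 were higher and 2 lower. Trib3, a pseudokinase induced by ATF4 and CHOP, had the array ratios 0.54 and 0.70 in the first pair and 0.77 and 0.98 in the second (0.75 ± 0.18, unadjusted p 0.0057, adjusted p 1.00 in limma). Its second probe gave 0.46 and was higher on 3 of 4 arrays. The levels of the first were 9.77 and 10.59 in Atg7+/+ and 10.39 and 11.47 in Atg7F/F, which overlapped across the pairs. Slc7a11, the cystine transporter subunit, had 0.29 ± 0.09 with a dim probe, at levels of 6.55 and 6.64 in Atg7+/+ and 6.91 and 6.86 in Atg7F/F. The 2 factors that name the branch, chosen for that and outside the rule for named genes, had -0.04 ± 0.05 (Atf4) and -0.25 ± 0.00 (Ddit3, which encodes CHOP).

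Other regulators of the response, 25 of 27 measured, had a median of 0.02, with 1 higher and 2 lower on all 4 arrays. Eif2ak2 (PKR), another eIF2α kinase, had -0.36 ± 0.15 (unadjusted p 0.034 in limma), and Bcl2l11 (BIM) 0.23 ± 0.11 with a second probe at 0.01. Bax, a pore-forming member of the same family as Bcl2l11, had a mean of -0.18 ± 0.04. Its array ratios were -0.35 and -0.46 with Atg7F/F in Cy5 and 0.05 and 0.04 with it in Cy3, so the sign went with the dye. The receptors that deliver ER to autophagosomes, 8 of 9 measured, had a median of -0.08, with 0 higher and 3 lower on all 4 arrays. Their median was -0.14 in replicate 1 and 0.03 in replicate 2, and 4 of the 8 differed in sign between the replicates. Of these, Retreg1 (FAM134B) had -0.19 ± 0.01 and a second probe at -0.17, Retreg2 -0.13 ± 0.03 and Rtn3 -0.10 ± 0.12 with a second probe of the opposite sign, at 0.11. Their unadjusted p lay at 0.11, 0.21 and 0.36.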

How the data were processed

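Per the labels' protocols, total RNA was treated with DNase, amplified and dye-labelled. The deposited scanner files hold spot intensity and local background intensity of both dyes. The authors' scanner software was, per the submitters' processing notes, Agilent Feature Extraction 10.1.1.1. The deposited value table holds log2 ratios by the authors of the software's processed signals, turned to Atg7F/F over Atg7+/+, which equalled those of the files within 0.001 for 99.7% of probes. Between 43.3% and 45.5% of spots per channel were well above background.

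Intensities were corrected with normexp (offset 50, which pulls dim ratios towards 0) and loess in limma 3.58.1 (R 4.3.3). Dye-swapped arrays were given the same direction and averaged. Probes without a non-uniformity outlier and well above background in at least 1 genotype on all 4 arrays were kept (17109 probes), and the brightest stood for a gene (12367 genes), so its ratio can differ from that of other probes. Genes were tested against 0 with lmFit and eBayes, two-sided, with Benjamini-Hochberg adjustment. Each pair of extracts, set by the hybridisation, is a replicate block by construction, and deviations of same-numbered extracts correlated at 0.18 over genes. Nothing says that replicates were separate animals, so p-values and intervals concern these samples only. Their variance combined the spread between the 2 replicates with a prior from all genes tested, which held 2.18 of 3.18 degrees of freedom.

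The members and lists were chosen with earlier results of these data known. Named were all members, Atg7 and, per list, the 3 genes of smallest unadjusted p. Promoter sequences are RefSeq's on GRCm38.p6 and probe positions those of the files on mm9, and exons or untranslated regions of probes are not stated since no mm9 annotation was used. Code was tested on simulated data. Alternatives changed background correction, normalization, filter, choice of probe, variance prior, handling of repeats and replicates left out. Figures were drawn with matplotlib.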

Additional observations from a re-analysis of the deposited data

How the results depend on the processing

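The count of members past an adjusted p of 0.05 stayed at 0 in every fit run. Centring on the median in place of loess gave a median ratio of 0.10 for the members and 0.12 for the related genes. The median of all genes was then 0.04. On all 4 arrays 3 members were higher and 0 lower, where 601 and 265 of all 12367 genes were. The paired design is part of the main test, and with no replicate block 1 gene of the array passed. With the pair as a random block on 4 arrays 9 genes passed, none of them a member. With 1 replicate left out, the members' median lay between 0.017 and 0.042. Without replicate 1, 15 of 34 members were higher and 11 lower on both remaining arrays, where 4718 and 4333 of all 12367 genes were. Without replicate 2, 12 members were higher and 6 lower, where 3622 and 3692 of all genes were. The dye-term fit used the correlation of 0.47 from the fit without that term, since its own could not be estimated. Over the 13 alternatives with both replicates, Hspa5, Calr, Sdf2l1, Manf, Pdia3, Ern1 and Sec61a1 changed sign in at least 1, and the other 27 members in none. Those altering the filter, the variance prior or the handling of repeats, and the probe-by-probe fit, left every member's ratio as it was. The deposited values nearly repeat the processed signals. A sign could thus change only under the other background corrections, signals, scaling or averaging of probes. The cause of these differences was not tested. The dim probes of Derl3 and Hyou1 moved furthest from the values given, to -0.82 and 0.56 with the scanner software's processed signals.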
